A study of Mus musculus with 2 samples.

Results

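Transcripts that mark sinusoidal endothelial cells and hepatic stellate cells were followed in mouse hepatocytes sorted for a phosphomimetic ezrin. The set holds 48 gene symbols, 32 endothelial and 16 stellate, chosen as known markers of these cells with no threshold on the signals. A gene was taken from probe sets annotated to that symbol alone, which gave 47 genes on the array (31 endothelial and 16 stellate) of 18193 genes in all. The symbol Eng2 matched no probe set, and no gene or synonym of that name stood in the RefSeq gene table.

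The liver lobule is built of cords of hepatocytes along capillaries called sinusoids. Sinusoidal endothelial cells line these capillaries without a continuous basement membrane, and they clear proteins and particles from blood through scavenger receptors. Stellate cells lie between the endothelium and the hepatocytes, store vitamin A as retinyl ester, and make matrix when they are activated. Both can remain in part in a collagenase digest, so their transcripts are a usual check of a hepatocyte preparation.

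The samples were 2 preparations of sorted hepatocytes from male wild-type FVB mice aged 6 to 8 weeks, 1 array each, hybridised to Affymetrix Mouse Genome 430 2.0 arrays. Both came from livers that had received 10 µg of an Ezrin T567D plasmid and 0.8 µg of a Sleeping Beauty transposase plasmid by rapid tail vein injection in 2 ml of saline, so the negative cells are injected-liver cells without GFP, not cells of untreated mice. The groups were EzrinT567D negative (GFP-) and EzrinT567D positive (GFP+), taken 1 week after injection according to the source names, while another label field gives 2 months for both, with chow for negative cells and fast food for positive cells. Diet and ezrin therefore cannot be told apart if that field is right. How many mice stood behind each array is not given in the sources used here.

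The deposited signals are MAS5 intensities on a linear scale, and over all probe sets the median was 174.2 (negative) and 187.6 (positive). Background was read from 84 probe sets for olfactory, vomeronasal, bitter taste and trace amine receptors, genes assumed here to be near background in liver. The floor of an array was the signal that 95% of them stayed under, 253 for the negative array and 334 for the positive one. Signals below are given as negative, then positive. Probe sets bind their targets with unequal strength, so a signal was set only against the floor and against the same probe set on the other array. With 1 array a group, the groups cannot be tested against each other and no value has a replicate error. The technical error that can be had comes from genes with 2 probe sets: over 1930 genes whose dimmer probe set was under 1000, the log2 ratios of the pair differed with an SD of 0.46, and 95% of pairs differed by less than 0.94. Over 1252 genes with the dimmer probe set at 1000 or more the SD was 0.33. Each SD is that of a difference between 2 ratios. It is wider than the error of 1 ratio if the 2 probe sets err independently. A ratio within the technical SD of 0.46 can thus still exceed the error of a single ratio.

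Hepatocyte transcripts were far above the floor in both arrays. All 8 hepatocyte genes with a probe set exceeded it, among them transthyretin (Ttr) at 53836.3 and 49685.0 and albumin (Alb) at 46434.5 and 38679.3. The summed signal of these 8 genes was 289322 and 259270. Hepatocyte markers were thus present on both arrays.

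Most endothelial and stellate genes lay near or under background. Of the 47 genes, 21 exceeded the floor in both arrays, 6 in the negative array only, 1 in the positive array only, and 19 in neither. The negative floor is the lower one, and of all 18193 genes 1479 exceeded only it and 337 only the positive floor. The 6 and the 1 thus lean the way all genes do. Of the 47 members, 59.6% were above the floor in at least 1 array, beside 55.9% of all 18193 genes, and 44.7% in both, beside 46%. Among the 21 genes above both floors, 11 had signals under 2 times the floor on each array. The share of members above the floor was thus close to that of any gene on the array. A probe set under the floor does not show that the transcript is absent.

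**Figure D1:**
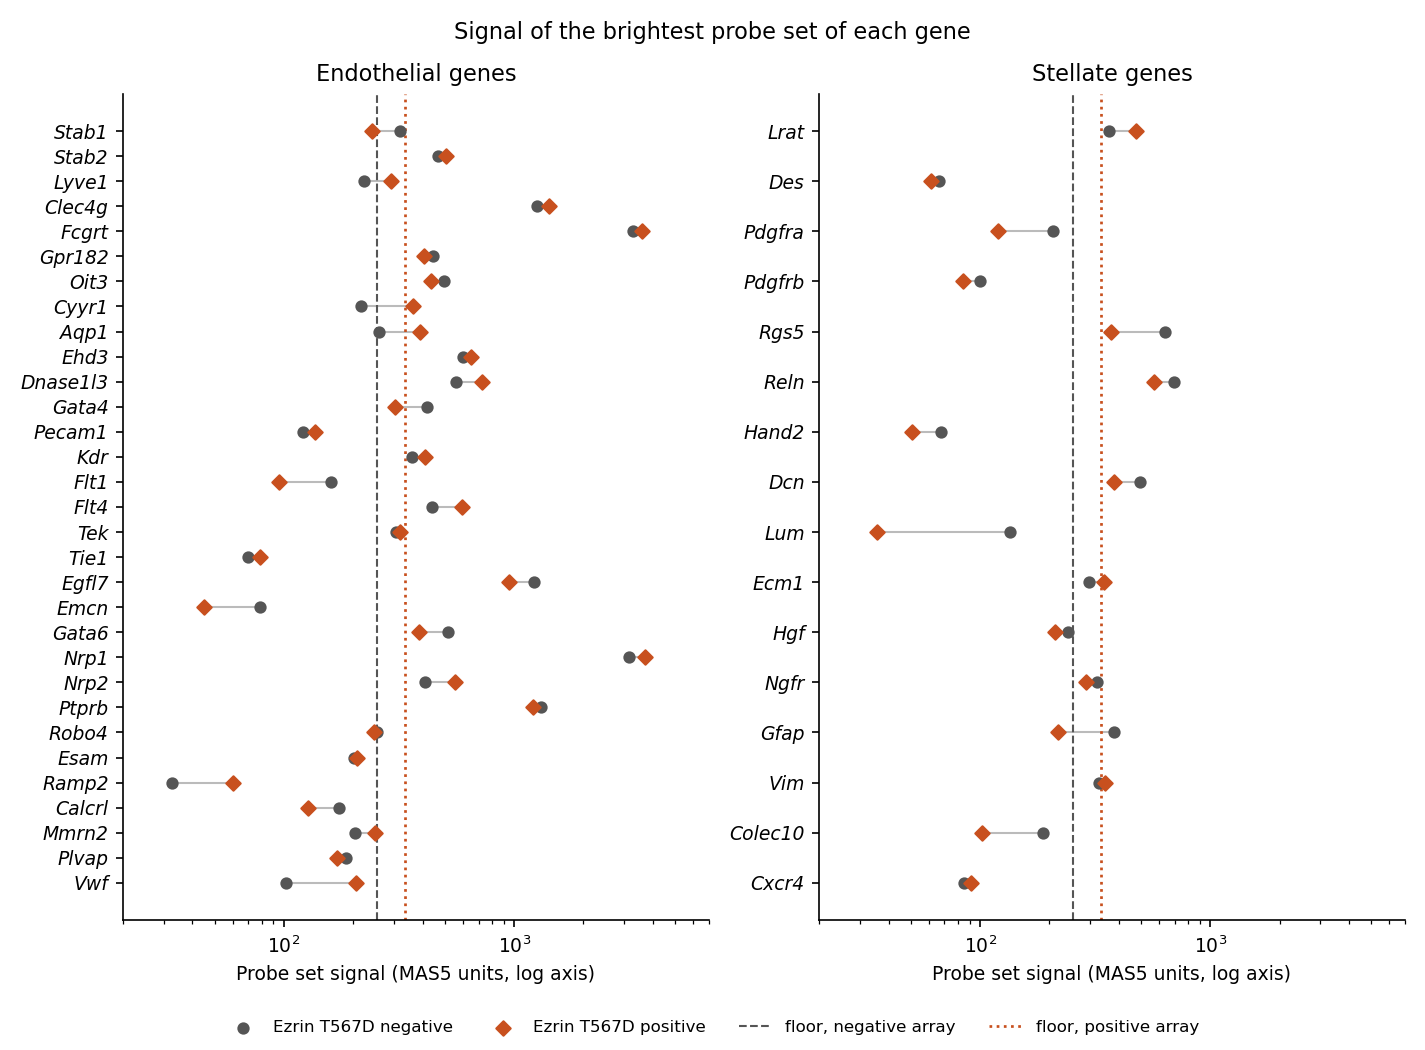
Signal of the brightest probe set of each endothelial gene (left) and stellate gene (right), in MAS5 units on a log axis, with 1 array per group. Grey circles are the Ezrin T567D negative and orange diamonds the positive array, and the vertical lines mark the floors at 253 and 334. Most genes sit around or left of the floors, and Fcgrt and Nrp1 sit farthest to the right.

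Between the 2 arrays the members differed little. At a threshold of 1.5-fold, 1 of 20 endothelial genes above the floor in at least 1 array was higher in Ezrin T567D-positive cells and 0 were lower. Of 8 stellate genes, 0 were higher and 1 was lower. Over all 10178 genes above the floor, 6.57% were higher and 3.98% lower by that measure. The endothelial count is near these shares. The stellate count rests on 1 gene of 8, too few to call near or far from them. Among genes with a mean signal up to 1000 the shares were 8.96% and 4.19%. At 2-fold, 0 members were higher and 0 lower, beside 1.34% and 0.58% of all genes. Of the 21 members measured on both arrays, 19 had a log2 ratio smaller in size than 0.46, and 0 passed 0.94. Both marks describe differences between the ratios of 2 probe sets, not the error of 1 ratio.

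The median log2 ratio over the 20 endothelial genes was 0.12 (positive over negative) and over the 8 stellate genes -0.10, against 0.00 for all genes above the floor. Restricted to genes measured on both arrays, the medians were 0.13 for 15 endothelial and -0.10 for 6 stellate genes, beside 0.09 for all genes of that kind with a mean signal up to 1000. Of the 15 endothelial genes 10 were higher and 5 lower, and of the 6 stellate genes 3 were higher and 3 lower. Ratios of any size were higher for 50.6% and lower for 49.4% of all genes measured on both arrays, and higher for 60.7% of those with a mean signal up to 1000. Aqp1, Ecm1 and Vim had negative signals between the floors, at 257.6, 296.1 and 327.5, and a gene there counts as measured on both arrays only if its positive signal is higher. With 1 floor of 334 for both arrays, 9 endothelial genes were higher and 5 lower, and 1 stellate gene was higher and 3 lower.

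**Figure D2:**
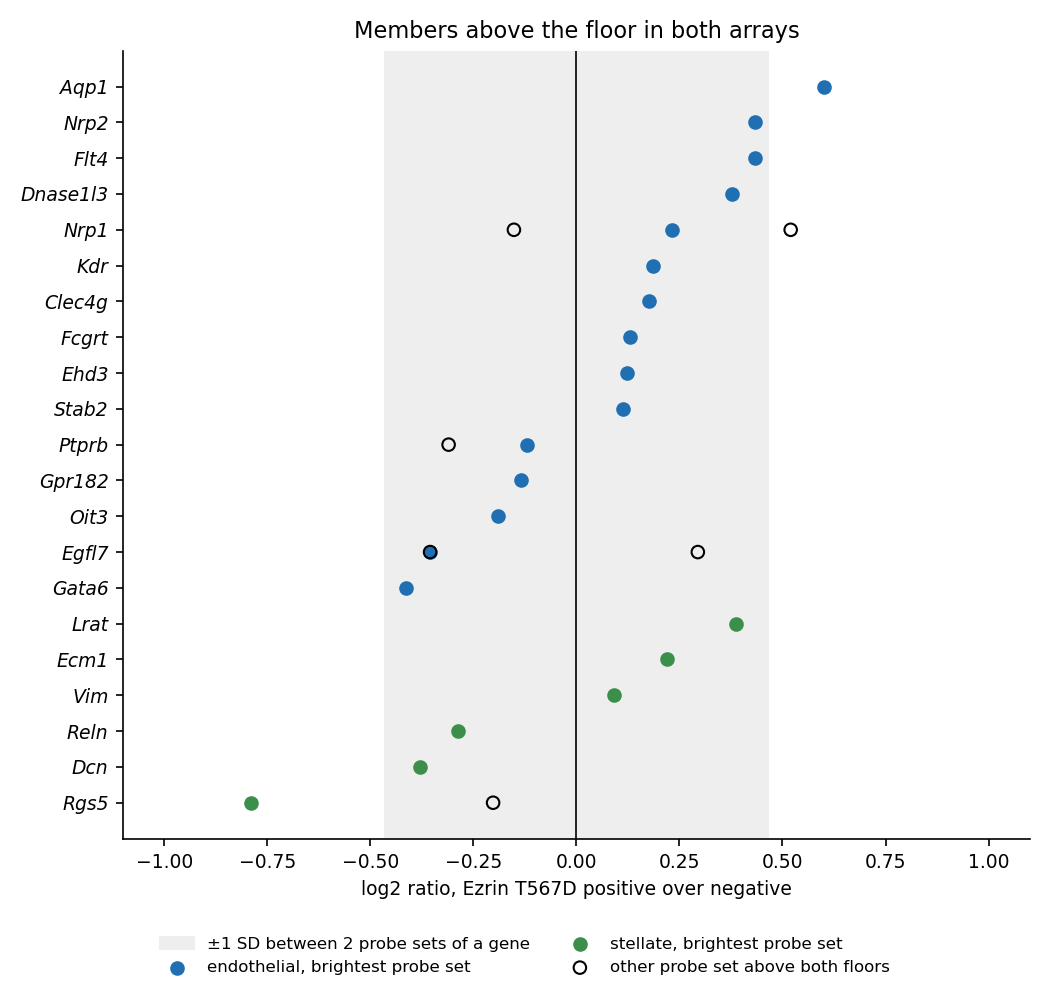
Log2 ratio, positive over negative array, of the 21 members above the floor in both arrays, with endothelial genes in blue and stellate genes in green, 1 array per group. Open circles are further probe sets of the same gene above both floors. The grey band is ±0.46, the SD of the difference between the ratios of 2 probe sets of a gene. Only Aqp1 and Rgs5 have their brightest probe set outside the band, the other Rgs5 probe set lies inside it, and 1 further Nrp1 probe set lies outside.

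The scavenger and lectin receptors are the functional signature of sinusoidal endothelium. Clec4g, a C-type lectin also called LSECtin, read 1255.2 and 1418.4, a log2 ratio of 0.18. Stab2, the stabilin that takes up hyaluronan, read 467.1 and 505.0 (0.11). Both were above the floor on each array and nearly equal between them. Stab1, the related stabilin, read 320.1 and 240.7, over the floor of the negative array alone. Its bound has no direction, since the positive floor is above its negative signal. Lyve1, the hyaluronan receptor shared with lymphatic vessels, was under the floor in both, at 222.1 and 292.6.

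The other sinusoidal genes were nearly all detectable, 6 of 7 in both arrays. Fcgrt, the neonatal Fc receptor that recycles IgG and albumin and is made by hepatocytes too, read 3287.1 and 3597.5 (log2 ratio 0.13). Dnase1l3, a secreted nuclease that degrades DNA in plasma, read 559.9 and 727.7, a log2 ratio of 0.38. Its second probe set was under the floor, at 192.3 and 207.4. Ehd3, an endocytic recycling protein, read 598.2 and 651.5 (0.12). The other Ehd3 probe set read 301.7 and 230.1, over the negative floor alone and with no direction as a bound. Gpr182, an atypical chemokine receptor, read 443.2 and 403.9, and Oit3 read 498.1 and 436.7, both lower in the positive array by less than the technical SD. These genes went in both directions by small amounts.

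Aqp1 was the 1 endothelial gene past 1.5-fold. This water channel, which bile duct cells also make, read 257.6 and 390.9, 1.52-fold higher in positive cells. Its negative signal was at the floor of 253, and it has 1 probe set. With 1 floor for both arrays its ratio is a bound of 0.23, and it was 0.51 after quantile normalization or after loess correction, under the threshold of 0.58 on the log2 scale. Cyyr1, a small membrane protein, read 215.7 and 362.2, at least 1.43-fold higher, with its other probe set at 214.7 and 251.4 under both floors.

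GATA factors direct the sinusoidal program, and Gata4 is required for it in mouse liver. Gata4 read 416.3 and 304.2, at least 1.25-fold lower in the positive array, and its second probe set was under the floor at 184.0 and 132.7. Gata6 read 513.6 and 385.5, a log2 ratio of -0.41. A further Gata6 probe set read 368.2 and 204.7, above the floor in the negative array only. Both factors read lower in the positive array, Gata6 by less than the technical SD in its brightest probe set.

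Growth factor receptors of the vessel wall fell on both sides of the floor. Kdr, the main receptor for VEGF-A, read 359.4 and 408.9 (log2 ratio 0.19). Flt4, the receptor for VEGF-C and VEGF-D, read 441.4 and 596.1 (0.43). Its second probe set read 136.3 and 358.9, over the positive floor alone. Flt1, which binds VEGF-A and limits its access to Kdr, had all 4 of its probe sets under the floor on both arrays, the brightest at 160.8 and 95.4. Of the VEGF receptors, Kdr and Flt4 were thus measurable, and in their brightest probe sets both read higher in positive cells by less than the technical SD. The bound of the second Flt4 probe set, 0.51, was past it.

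The neuropilins are co-receptors for VEGF and semaphorins. Nrp1 read 3156.0 and 3706.3 in its brightest probe set, a log2 ratio of 0.23. Others above both floors read 2475.1 and 2228.0 (-0.15) and 1292.2 and 1852.8 (0.52), so the probe sets did not share a sign. Nrp2 read 411.6 and 556.0 (0.43), with its remaining 3 probe sets under the floors. Ptprb, the endothelial receptor phosphatase that restrains Tie2, read 1310.9 and 1206.8 (-0.12), and a second probe set read 512.7 and 413.5 (-0.31). The Ptprb probe sets were both slightly lower.

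The angiopoietin receptor Tek (Tie2) read 305.5 and 320.6, over the negative floor alone, which is the lower one. Its partner Tie1 read 69.9 and 78.4, under both. Robo4, a guidance receptor of endothelium, read 252.8 and 246.4, at the floor in the negative array. Calcrl and Ramp2, which together form the adrenomedullin receptor, were under the floor in both arrays. Ramp2 had 1 probe set of its own at 32.6 and 59.9, and Calcrl read 174.0 and 126.7 in its brightest. None of these genes gave a usable ratio.

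Egfl7, a secreted endothelial protein, was the only one of 7 surface and secreted endothelial genes above the floor. Its brightest probe set read 1216.2 and 950.7, a log2 ratio of -0.36, and the next read 855.1 and 668.5 (-0.36). A further one read 276.8 and 339.5 (0.29), with the opposite sign and close to both floors. Pecam1, the classical pan-endothelial adhesion molecule, read 121.1 and 136.3. Emcn, Esam, Mmrn2, Plvap and Vwf were also under both floors, Vwf (von Willebrand factor of larger vessels) at 102.1 and 205.0. The 11 endothelial genes under the floor on both arrays reached at most 222.1 (negative) and 292.6 (positive). The junction and large-vessel genes of the set were therefore at background on both arrays.

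Stellate genes were measurable on both arrays for 6 of 16 (37.5%), beside 46% of all genes. Lrat, the enzyme that esterifies retinol for storage and the defining stellate transcript, read 362.1 and 473.5, a log2 ratio of 0.39, and its second probe set was under the floor at 197.0 and 25.3. Hand2, a transcription factor of stellate cells, read 67.5 and 50.8, under both floors. The defining retinoid gene was thus just above background on both arrays.

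Among secreted stellate products, Reln (reelin, an extracellular glycoprotein) read 696.1 and 570.1, a log2 ratio of -0.29. Dcn (decorin, a small collagen-binding proteoglycan) read 495.3 and 380.5 (-0.38). Ecm1, a matrix glycoprotein, read 296.1 and 344.8 (0.22). Reln and Dcn were lower in the positive array, by less than the technical SD. Hgf, the hepatocyte growth factor ligand, lay under the floor in both arrays at 242.0 and 210.6, as did Lum (lumican) at 134.2 and 35.5 and the collectin Colec10 at 187.1 and 102.3.

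Rgs5 was the 1 stellate gene past 1.5-fold. It encodes a GTPase activator for G proteins that marks pericytes, and it read 638.3 and 369.4, 1.73-fold lower in positive cells. A second probe set above both floors read 455.6 and 396.0, a log2 ratio of -0.20 against -0.79 for the first. The next read 283.4 and 306.3, over the negative floor alone, and the last was under both. Averaged over its probe sets above the floor the log2 ratio was -0.33, under the threshold. The call on Rgs5 thus rests on 1 of its 4 probe sets.

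The remaining stellate receptors and filaments were at background or near it. Pdgfra and Pdgfrb, the PDGF receptors of mesenchymal cells, read 207.1 and 119.7, and 99.7 and 84.4, under both floors. Ngfr (the p75 neurotrophin receptor) read 323.6 and 289.0, above the floor in the negative array only and with no direction as a bound. Cxcr4, the receptor for CXCL12, read 84.7 and 91.3. Of the intermediate filament genes, Vim (vimentin, in mesenchymal cells at large) read 327.5 and 348.8 (log2 ratio 0.09) and Des (desmin) 66.4 and 61.0. Gfap read 383.1 and 218.8. Its positive signal lay under the floor, which leaves it at least 1.15-fold lower. The 8 stellate genes under both floors reached at most 242.0 (negative) and 210.6 (positive).

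**Figure D3:**
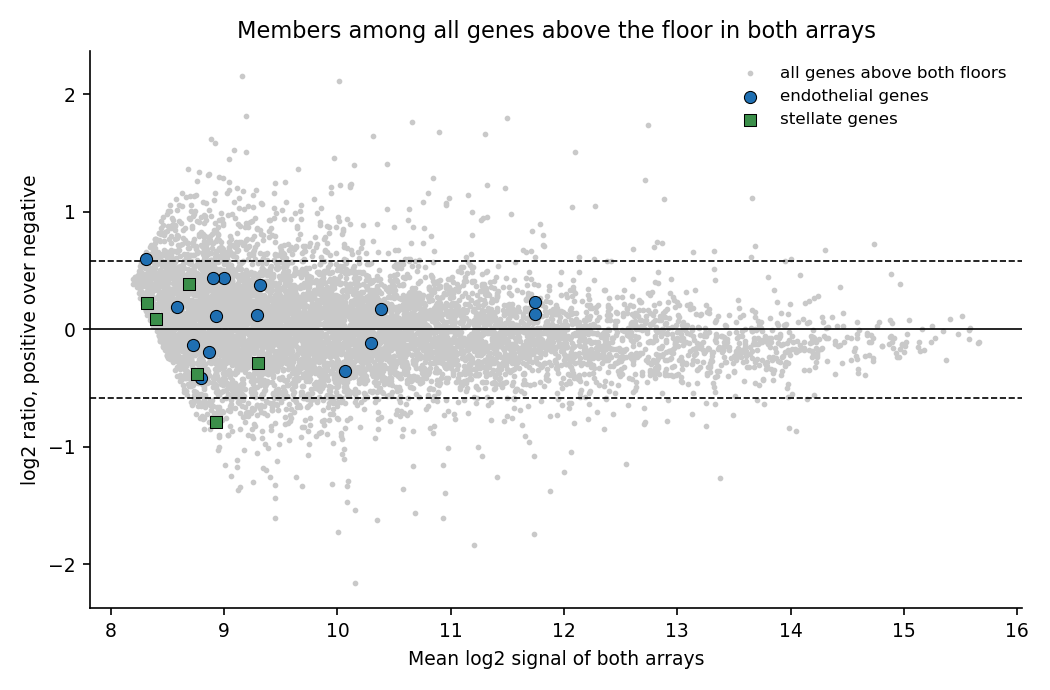
Log2 ratio (positive over negative) against the mean log2 signal of both arrays, for every gene above both floors (grey, 8362 genes) and for the endothelial (blue circles) and stellate (green squares) members. Dashed lines mark 1.5-fold. The members lie inside the grey cloud, mostly at its dim end, where the unequal floors cut it off obliquely.

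Summed over the brightest probe sets of all 31 endothelial genes, signals came to 17837.3 (negative) and 19081.1 (positive), a ratio of 1.07. Without Fcgrt and Nrp1, left out after their values were seen, the sums were 11394.2 and 11777.3, a ratio of 1.03. For the 16 stellate genes the sums were 4610.8 and 3750.5, a ratio of 0.81, with 8 of these genes under both floors. The endothelial sum was slightly higher and the stellate sum lower in positive cells, beside a ratio of 0.90 for the 8 hepatocyte genes. The same ratio was 0.96 for all genes and 1.03 for genes with a mean signal up to 1000. In such bulk RNA, fewer cells of a type and less RNA per cell cannot be told apart.

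Genes of the same cell types outside the set were measured beside it. Of 20 further endothelial genes 10 (50%) passed the floor on at least 1 array, beside 55.9% of all genes. Of these 10, 2 were at least 1.5-fold higher and 0 lower in positive cells. Among all genes above the floor with a mean signal up to 1000 the shares were 8.96% and 4.19%. Cdh5 (VE-cadherin, the adherens junction protein of endothelium) read 283.0 and 507.0, 1.79-fold higher, with its other probe set under both floors. Bmp2, an endothelial signal that induces hepcidin in hepatocytes, read 274.7 and 508.3, 1.85-fold higher. Both negative signals lay between the floors, where only higher genes count as measured on both arrays. Fcgr2b, the inhibitory Fc receptor of sinusoidal endothelium, had probe sets of both signs. The brightest read 604.6 and 770.8 (log2 ratio 0.35), against 621.9 and 486.0 (-0.36) and 480.2 and 385.4 (-0.32). Mrc1, the mannose receptor, read 618.3 and 588.4. Eng (endoglin), named because Eng2 matched nothing, read 464.8 and 168.3, at least 1.39-fold lower, so these genes shared no direction.

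Of 21 further stellate genes 9 (42.9%) passed the floor on at least 1 array, beside 55.9% of all genes. Of these 9, 0 were past 1.5-fold in either direction, beside 6.57% higher and 3.98% lower of all genes above the floor. So few genes cannot be set apart from those shares. Sparc (osteonectin) read 1978.3 and 1834.6, Steap4 (a metalloreductase) 3592.4 and 3756.4, Col3a1 688.2 and 607.3, and Col1a2 494.1 and 618.7. Col1a1 read 260.4 and 346.5 (log2 ratio 0.41), its negative signal just over the floor, and is named beyond the 4 genes of highest signal to complete the fibrillar collagens. Col1a1 and Col1a2 read higher and Col3a1 lower in positive cells, each by less than the technical SD.

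Ligands and receptors that pair with the members include products of hepatocytes. Of 25 with a probe set, 10 (40%) exceeded the floor in at least 1 array, beside 55.9% of all genes. Of these 10, 2 were at least 1.5-fold higher and 1 lower, beside 6.57% and 3.98% of all genes above the floor. Vegfa, the ligand of Kdr and Flt1, read 1565.6 and 2127.9 (log2 ratio 0.44), and 1212.3 and 1380.4 (0.19) in its other probe set. Adm, the adrenomedullin ligand of Calcrl and Ramp2, read 665.5 and 1058.5, 1.59-fold higher. Adm was past the technical SD of 0.46. Both Vegfa probe sets were brighter than 1000, where the SD was 0.33. The ratio of the brighter one was past that SD and that of the other within it. Kdr was within the SD of 0.46, and Flt1, Calcrl and Ramp2 were at background.

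The PDGF ligands differed in how they could be read. Pdgfc read 144.2 and 427.6, at least 1.69-fold higher, and Pdgfb 188.6 and 335.3, at least 1.33-fold higher. Pdgfa probe sets disagreed, with 1013.0 and 1042.8 in one and 851.9 and 308.0 in the other. Pdgfb and Pdgfc were thus over the floor in positive cells alone.

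Of the remaining partners, Efnb2, an ephrin of arterial endothelium, read 638.2 and 389.2, 1.64-fold lower. Met, the receptor for HGF on hepatocytes, was lower in both probe sets, at 2480.7 and 1856.6 (log2 ratio -0.42) and at 517.9 and 384.6 (-0.43). Cxcl12, the ligand of Cxcr4, read 5495.4 and 4642.5 (-0.24). These 3 read lower in positive cells, 2 of them by less than the technical SD. Of the 6 genes of this list above both floors, 3 read higher and 3 lower, so the list had no common direction. Gdf2 (BMP9, a ligand made by stellate cells) read 301.4 and 81.6, and the Tie2 ligand Angpt2 read 273.1 and 274.0. Both exceeded only the negative floor and had no direction as bounds.

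**Figure D4:**
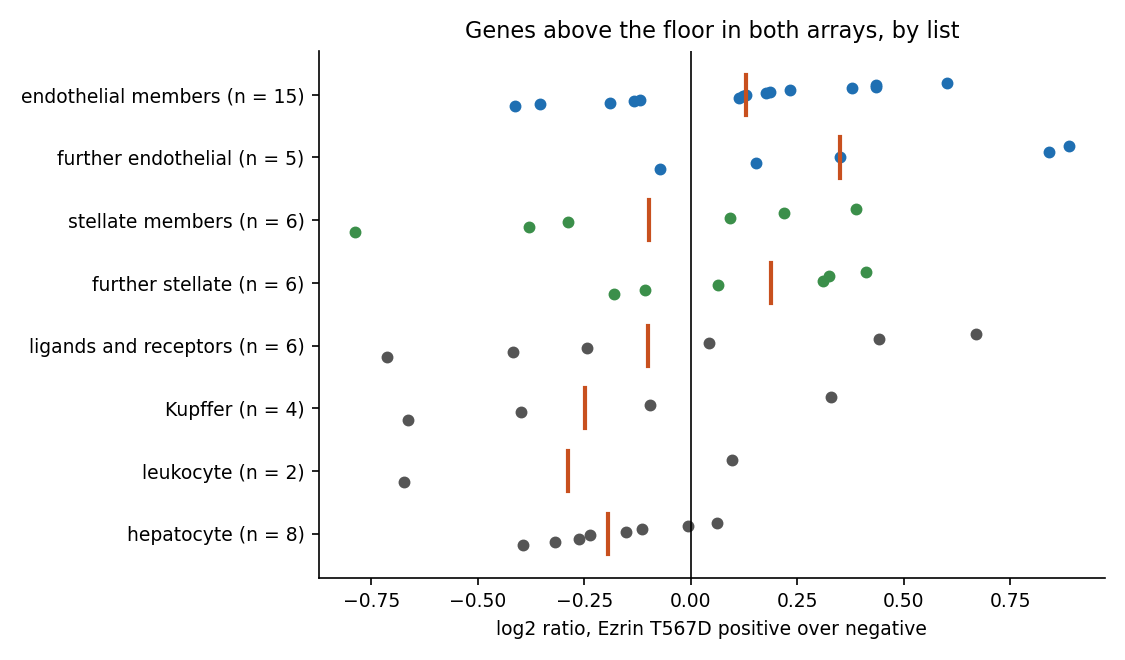
Log2 ratio (positive over negative) of genes above the floor in both arrays, by list, with the number of genes in each. Points are genes, 1 array per group, and the orange bar is the list's median. Endothelial members centre at 0.13 and stellate members at -0.10, and each list spans both sides of 0.

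Markers of other liver cells were measured beside the members. Of 13 Kupffer cell genes (resident liver macrophages) 5 (38.5%) passed the floor on at least 1 array, beside 55.9% of all genes. The summed signal over all 13 was 4238.1 and 3243.4. C1qb, a complement subunit, read 1214.2 and 765.8, 1.59-fold lower. Its other probe set above both floors read 934.6 and 684.6 (log2 ratio -0.45), under the 1.5-fold threshold. Lyz2 read 690.4 and 523.4, Csf1r 558.7 and 702.1, and Clec4f, the rodent Kupffer lectin, 379.2 and 354.7. Of 11 leukocyte genes 4 (36.4%) exceeded the floor, with H2-Aa at 692.1 and 433.7 and the summed signal at 2202.5 and 2148.6. Of 5 cholangiocyte and 3 blood cell genes 0 did. Kupffer genes had a lower summed signal in positive cells, as stellate genes did. Their part in the stellate values was not tested.

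Promoter sequence is shown for members above both floors, 3 endothelial and 2 stellate, picked after their values were seen. Each is the 250 bases upstream of the RefSeq start (GRCm38.p6), printed 5′ to 3′ on the gene's strand: Clec4g at chr8:3720652-3720901, minus strand; Stab2 at chr10:87007943-87008192, minus strand; Kdr at chr5:75978456-75978705, minus strand; Reln at chr5:22344706-22344955, minus strand; Rgs5 at chr1:169655251-169655500, plus strand. Capitals mark exact matches, on either strand, to GGAAGT, a core bound by ETS factors (a family with many endothelial members), or AGATAA, a core bound by GATA factors.
Clec4g: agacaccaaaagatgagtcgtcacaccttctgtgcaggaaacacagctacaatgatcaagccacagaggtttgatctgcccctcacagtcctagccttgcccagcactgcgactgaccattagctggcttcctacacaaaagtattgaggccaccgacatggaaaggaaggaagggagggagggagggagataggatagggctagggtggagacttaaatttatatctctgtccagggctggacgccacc
Stab2: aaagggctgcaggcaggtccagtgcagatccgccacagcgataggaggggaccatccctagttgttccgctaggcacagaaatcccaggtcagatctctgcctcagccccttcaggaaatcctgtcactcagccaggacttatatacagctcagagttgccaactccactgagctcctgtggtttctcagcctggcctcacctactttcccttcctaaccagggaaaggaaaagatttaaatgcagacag
Kdr: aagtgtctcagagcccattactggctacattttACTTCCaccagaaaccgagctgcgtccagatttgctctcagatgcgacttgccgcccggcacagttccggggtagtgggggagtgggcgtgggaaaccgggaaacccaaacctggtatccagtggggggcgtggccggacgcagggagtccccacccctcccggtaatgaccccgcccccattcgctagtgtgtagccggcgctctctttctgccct
Reln: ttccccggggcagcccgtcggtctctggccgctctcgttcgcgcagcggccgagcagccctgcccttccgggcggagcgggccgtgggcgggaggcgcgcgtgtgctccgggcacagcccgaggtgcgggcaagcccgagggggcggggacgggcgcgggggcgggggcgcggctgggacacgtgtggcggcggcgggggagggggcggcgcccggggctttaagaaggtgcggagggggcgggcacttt
Rgs5: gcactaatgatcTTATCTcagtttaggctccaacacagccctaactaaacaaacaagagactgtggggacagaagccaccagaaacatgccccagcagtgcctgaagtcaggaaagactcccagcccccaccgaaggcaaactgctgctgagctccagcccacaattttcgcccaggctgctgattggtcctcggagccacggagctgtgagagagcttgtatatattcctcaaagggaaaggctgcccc
Kdr held 1 match to the ETS letters and Rgs5 1 to the GATA letters, each on the opposite strand, and Clec4g, Stab2 and Reln held 0 of either.

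Over the set, 30 members had a promoter in the RefSeq table, 18 endothelial genes with 20 promoters and 12 stellate genes with 13. The ETS letters stood in 5 of the 20 endothelial promoters (25%), those of Egfl7, Flt1, Kdr and Tie1, and in 2 of the 13 stellate ones, beside 19.7% of all 32851 promoters. The GATA letters stood in 0 of 20 endothelial and 2 of 13 stellate promoters (Hand2 and Rgs5), beside 9.99% of all. These counts describe the letters in these windows and nothing of what binds there. Among the 16 promoters of endothelial genes above the floor in at least 1 array, 3 (18.8%) held the ETS letters.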

How the data were processed

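RNA from 2 sorted hepatocyte samples was measured, 1 array in each group, and groups came from the group label. The deposited table holds the intensity of each probe set, not log-transformed, which the authors made with MAS5 (per the submitters' processing notes). Both arrays had a 2% trimmed mean of 500.0 and so share 1 scale, which hides a shift of all transcripts at once. MAS5 settings and detection calls were not used here.

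Of 45101 probe sets, 34945 carried 1 gene symbol in GEO's platform annotation and were kept. Entrez IDs of 34741 matched the RefSeq gene table, and 0 symbols changed. The probe set with the highest mean signal stood for its gene. A gene above the floor on 1 array got a bound, with the dim signal raised to its floor, and a log2 ratio of 0 where the bound had the opposite sign to the side that was measured, as for 875 genes. Values were computed with Python 3.11.15, numpy 2.4.6, pandas 2.3.3 and statsmodels 0.14.6, and the ratio step was tested on simulated data. No p-value was computed, since 1 array per group allows no test.

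Members and lists were chosen with earlier results of these data known. All members were named. Of each other list at most 4 genes of highest mean signal were named, apart from Eng (for Eng2) and Col1a1 (named after its values were seen), and of the ligand and receptor list all above the floor. Alternatives were a floor at the 99th percentile, 1 floor, the median of all probe sets, no floor, quantile normalization, loess correction, the mean over probe sets, no _s_at or _x_at probe sets, genes above both floors only, bounds as computed, and a 2-fold threshold. A floor with the Tas1r taste receptors added was chosen after seeing the data. Arrays give no counts, so their number limits the precision.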

Additional observations from a re-analysis of the deposited data

How the results depend on the processing

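No paired analysis was possible because each group holds 1 array. The median log2 ratio of endothelial genes ran from 0.043 to 0.13 and that of stellate genes from -0.26 to -0.076 over 11 alternatives, with the sign kept under each. Over stellate genes above both floors alone, the median was -0.10 but 0.049 with the 99th percentile floor, which left 2 genes. Members above the floor numbered 28, from 20 with the 99th percentile floor to 36 with each array's median as the floor, and 47 with no floor, by construction. Endothelial genes at least 1.5-fold apart numbered 1. They were 0 with the 2-fold threshold, the 99th percentile floor, 1 floor for both arrays, quantile normalization, loess correction and the floor with Tas1r receptors, 2 with the floor at the median, and 6 without a floor. Stellate genes numbered 1. They were 0 with the 2-fold threshold, the 99th percentile floor and the mean over probe sets, 2 with the floor at the median, and 5 without a floor. Counts with no floor include signals that cannot be told from background. Of 256 ratios of single members recomputed, 254 moved by less than the technical SD of 0.46. The other 2 moved by more (Gfap, -0.81 with the floor at the median or no floor). Several alternatives, such as bounds as computed, leave the ratio of a gene above both floors unchanged by construction. A member that fell under both floors of an alternative was not counted there. Sign changes were counted only for members past 1.5-fold, Aqp1 and Rgs5, and there were 0. Vim, a smaller ratio, went from 0.09 to -0.004 with loess correction. Signals near the floor limit what most members can show.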
